A study of Mus musculus with 6 samples.

Results

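The Hox genes are the mouse homeobox genes of the clusters Hoxa, Hoxb, Hoxc and Hoxd, and they were followed here as a record of position along the body in newborn intestine. They were chosen by name alone, as the genes called Hox with a cluster letter from a to d and a paralog number, which gave 39 of the 54532 genes in the files. The name Hoxd4 had 2 entries, of which the one with more counts was used. The tissue was intestine of newborn mice of the inbred C57BL/6 strain, given NECA (N-ethylcarboxamidoadenosine, a broad agonist of adenosine receptors) or the solvent DMSO for 5 days, with 3 libraries in each group. No other allele or agent is named in the labels, and all 6 libraries share the strain, the age and the tissue. The labels do not give the segment of bowel, the route of NECA or the number of animals behind each library, and the p-values reflect spread among libraries that may be partly technical. The study's title concerns necrotizing enterocolitis, a bowel inflammation of the newborn, and what adenosine does to myeloid-derived suppressor cells.

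Hox genes encode transcription factors that bind DNA through a homeodomain, usually together with cofactors of the PBX and MEIS families. Their order along each chromosome cluster matches the order in which they are used along the body, with low paralog numbers used at the head end and high numbers at the tail end, and the genes of the same number in different clusters are paralogs. In the gut they are known chiefly from the mesenchyme and smooth muscle that surround the epithelium, and from enteric neurons, and genes of high number mark the hindgut. CDX factors, the caudal-type homeodomain proteins of the intestine, act upstream of many Hox genes. In the text, groups 1 to 3 are called anterior, groups 4 to 8 central and groups 9 to 13 posterior, which gave 8 anterior, 15 central and 16 posterior genes.

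Upstream DNA was read for the Hox genes that the RefSeq promoter table on GRCm38.p6 holds, which were 22 of the 39 with 24 start sites in all. Windows covered the 250 bases before each start. They were searched on both strands for TTTATNG, a form bound by CDX and posterior HOX proteins, and for TGATTNAT, the joint site of PBX and HOX proteins. TTTATNG was found in 2 of the 24 windows and TGATTNAT in 2, against 9.81% and 2.82% of all 32851 windows in the table, and no window of a Hox gene held both motifs. Windows are shown for Hoxa5, the member with the highest mean level, for Hoxa13, whose transcripts were found in 1 library, for Hoxb8, which had 3 matches of TTTATNG, and for Hoxa2, which had 1 match of TGATTNAT on the opposite strand and the smallest p of the members. Capitals mark the matches, and sequences run 5′ to 3′ on the strand of the gene.
Hoxa5: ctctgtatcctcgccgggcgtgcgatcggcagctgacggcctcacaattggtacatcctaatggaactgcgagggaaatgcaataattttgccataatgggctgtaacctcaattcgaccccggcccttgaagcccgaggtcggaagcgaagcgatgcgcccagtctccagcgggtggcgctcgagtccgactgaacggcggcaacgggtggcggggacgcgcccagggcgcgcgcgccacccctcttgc
Hoxa13: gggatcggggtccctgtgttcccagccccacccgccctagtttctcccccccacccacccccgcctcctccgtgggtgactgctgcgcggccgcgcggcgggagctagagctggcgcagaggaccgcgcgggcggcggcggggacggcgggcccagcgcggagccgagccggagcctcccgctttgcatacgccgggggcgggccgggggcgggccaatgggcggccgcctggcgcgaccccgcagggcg
Hoxb8: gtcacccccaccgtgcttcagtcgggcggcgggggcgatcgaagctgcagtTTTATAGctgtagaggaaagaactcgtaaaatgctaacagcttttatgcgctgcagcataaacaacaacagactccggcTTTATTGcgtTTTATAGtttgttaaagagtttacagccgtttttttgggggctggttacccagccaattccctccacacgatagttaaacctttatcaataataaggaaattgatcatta
Hoxa2: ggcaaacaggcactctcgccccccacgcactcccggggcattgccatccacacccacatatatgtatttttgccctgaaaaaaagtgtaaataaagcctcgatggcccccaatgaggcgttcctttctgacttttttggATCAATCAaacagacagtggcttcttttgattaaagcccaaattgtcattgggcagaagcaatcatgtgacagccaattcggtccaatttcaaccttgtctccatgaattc
These windows lie at chr6:52204588-52204837, chr6:52260881-52261130 and chr6:52164832-52165081 on the minus strand and at chr11:96281655-96281904 on the plus strand of GRCm38.p6. None of the 4 windows overlaps an exon annotated in GENCODE M21, and the Hoxa5 window lies in introns of Hoxa3 and of the antisense gene Hoxaas3. In Hoxb8 the matches begin at positions -199, -120 and -110 relative to the start. The Hoxa13 window had 80.0% G and C and 35 CpG dinucleotides and that of Hoxa5 had 63.6% and 28, whereas the Hoxb8 window had 44.4% and 12 and the Hoxa2 window 46.4% and 6, beside a median of 52.4% and 6 over all windows. A match is a description of letters and says nothing of binding.

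The libraries held 15917018, 18065078 and 17895486 counts in NECA and 17922697, 15531996 and 16302265 in DMSO, and 21564 to 21946 genes had at least 1 count. A gene at 0 is therefore limited to 0.166 to 0.193 CPM, before any scaling, the level of 3 counts in these libraries, a limit that covers counting error only because no molecular identifiers are named for these amplified reads. NECA replicate 2 stood apart from the rest, its median pairwise correlation across genes being 0.928 on the log2 scale, against 0.957 to 0.977 for the others. Mitochondrially encoded genes took 1.31% of its counts, against 2.80% to 8.39% elsewhere. All 9 epithelial markers were tested and had summed levels of 8320, 11707 and 8568 CPM in NECA and 7559, 6304 and 8928 CPM in DMSO, so the epithelium of the labelled tissue was present in each library. Stomach markers were near 0, with 4 of 8 at 0 in all libraries (Gif, Gkn2, Muc5ac and Tff1) and summed levels of 0.249 to 1.38 CPM in NECA and 1.06 to 1.19 CPM in DMSO. CPM is the usual count relative to library size, here after TMM scaling.

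Most central Hox genes and most anterior ones were present in every library, whereas 8 of the posterior genes were not seen at all. Of the 39 genes, 30 had at least 1 count in some library, 22 had counts in all 6, and 9 were at 0 throughout. The 9 were Hoxc10, Hoxc11, Hoxc12, Hoxc13, Hoxd1, Hoxd10, Hoxd11, Hoxd12 and Hoxd13, so 8 of the 16 posterior genes and 1 of the 8 anterior genes were at 0, and none of the 15 central ones. By cluster, none of the 11 Hoxa and 10 Hoxb genes, 4 of the 9 Hoxc genes and 5 of the 9 Hoxd genes were at 0. In number of genes with counts, the NECA libraries had 24, 25 and 24 and the DMSO libraries 29, 26 and 24. Hox genes together had 1467, 2566 and 1605 counts in NECA and 2201, 2208 and 1586 in DMSO.

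Hoxa5, which is required for normal development of the lung and gut in mice, had the highest level per length. Its FPKM was 10.0, 8.67 and 8.63 in the NECA libraries and 10.6, 15.3 and 10.5 in the DMSO libraries, 15.9% to 24.4% of all Hox FPKM in a library. Its neighbour Hoxa4 came second by the mean over the 6 libraries, with 5.51, 1.83 and 4.88 FPKM in NECA and 6.28, 14.9 and 4.32 FPKM in DMSO. The highest Hoxa4 value was in DMSO replicate 2 and the lowest in NECA replicate 2, and Hoxa4 lay below Hoxa5 in each of the 6 libraries. Hoxb7, Hoxb5 and Hoxb6 followed at means of 3.80, 3.73 and 3.20 FPKM over the 6 libraries, and the ranges of these 3 neighbours in the order overlapped. Hoxb5, a regulator of the enteric neural crest, was the steadiest of them, at 3.16 to 5.15 FPKM over the libraries, whereas Hoxb7 ran from 1.65 to 7.22 FPKM. Hoxa2, a gene of the branchial arches and hindbrain, averaged 2.39 FPKM, Hoxc4 2.15 and Hoxd8 2.05, again with overlapping ranges. Hoxb4 (1.90), known from blood stem cells, Hoxb8 (1.65), Hoxc8 (1.64) and Hoxc6 (1.41) completed the 12 members with the highest means.

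The other members were lower. Hoxc5, Hoxa7 and Hoxa3 averaged 1.30, 1.09 and 1.03 FPKM over the 6 libraries and Hoxb9 and Hoxa10 0.948 and 0.722, and the remaining 13 with any count averaged 0.673 FPKM (Hoxb3) or less. Hoxd4, with 0 to 2 counts in a library, and Hoxb1, with 2 counts in DMSO replicate 2 alone, were at or below the limit of 3 counts. Exons of 15 of the 38 members found in GENCODE M21 overlap an exon of another gene, 9 of them one on the opposite strand. Since the strand setting is not given, reads of the overlapped genes cannot be told apart from those of their partners. Among the members described in detail the shared part was 27.1% of the exon bases in Hoxa3, 27.3% in Hoxb2, 16% in Hoxa4, 15% in Hoxa2 and 3.6% in Hoxb5. It was 0 in Hoxa5, Hoxb4, Hoxb6, Hoxb7, Hoxb8, Hoxc4, Hoxc6, Hoxc8 and Hoxd8. Among the other tested members it was 52.9% in Hoxb3, 20.4% in Hoxa7, 5.4% in Hoxc5 and 0 in Hoxb9 and Hoxd9.

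**Figure D1:**
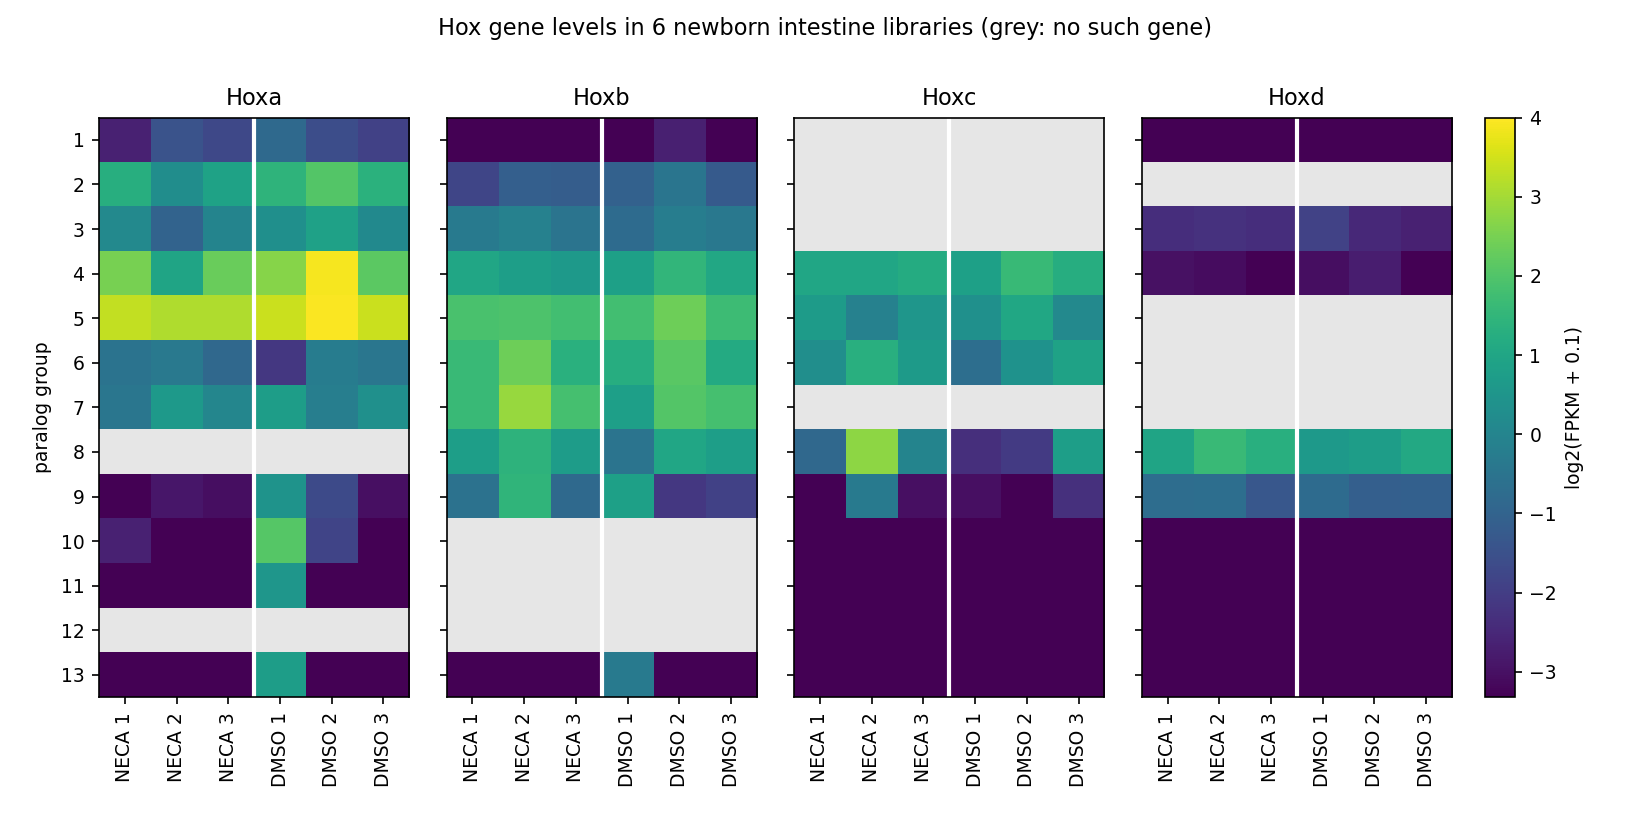
Levels of all 39 Hox genes as log2(FPKM + 0.1), with 1 panel per cluster, paralog groups down the page and libraries across, NECA left of DMSO. Hoxa5 is the brightest gene in each library, Hoxa4 is next to it in brightness except in NECA replicate 2, Hoxa9 to Hoxa13 and Hoxb13 are bright in DMSO replicate 1, Hoxc8 is brightest in NECA replicate 2, and groups 10 to 13 of Hoxc and Hoxd are at 0 throughout.

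Central genes made up most of the Hox transcripts. Their share of the summed Hox FPKM was 87.0%, 87.2% and 88.2% in the NECA libraries and 66.8%, 87.3% and 87.5% in the DMSO libraries. Anterior genes held 10.2%, 5.63% and 9.76% in NECA and 10.7%, 11.3% and 10.9% in DMSO, so the low value was that of NECA replicate 2. Posterior genes held 2.74%, 7.19% and 2.01% in NECA and 22.6%, 1.34% and 1.56% in DMSO. DMSO replicate 1 and NECA replicate 2 were the libraries with the larger posterior shares, one in each group. Hoxb9 was high in both, at 2.64 FPKM in NECA replicate 2 and 1.70 FPKM in DMSO replicate 1. With Hoxa9, Hoxa10, Hoxa11, Hoxa13 and Hoxb13 left out, a choice made after their values were seen, the posterior share was 7.13% in NECA replicate 2 and 5.44% in DMSO replicate 1, beside 2.60% and 1.96% in NECA replicates 1 and 3 and 0.754% and 1.5% in DMSO replicates 2 and 3. By cluster, Hoxa genes held 47.7%, 26.4% and 44.3% of the Hox FPKM in NECA and 62.7%, 57.7% and 47.2% in DMSO, and Hoxc genes 11.8%, 22.7% and 14.7% in NECA and 7.07%, 9.53% and 15.7% in DMSO. Hoxb genes held 34.7%, 44.2% and 34.1% in NECA and 25.9%, 29.6% and 31.4% in DMSO. These shares sum to 100 in a library, so that a larger share of 1 cluster lowers the others.

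**Figure D2:**
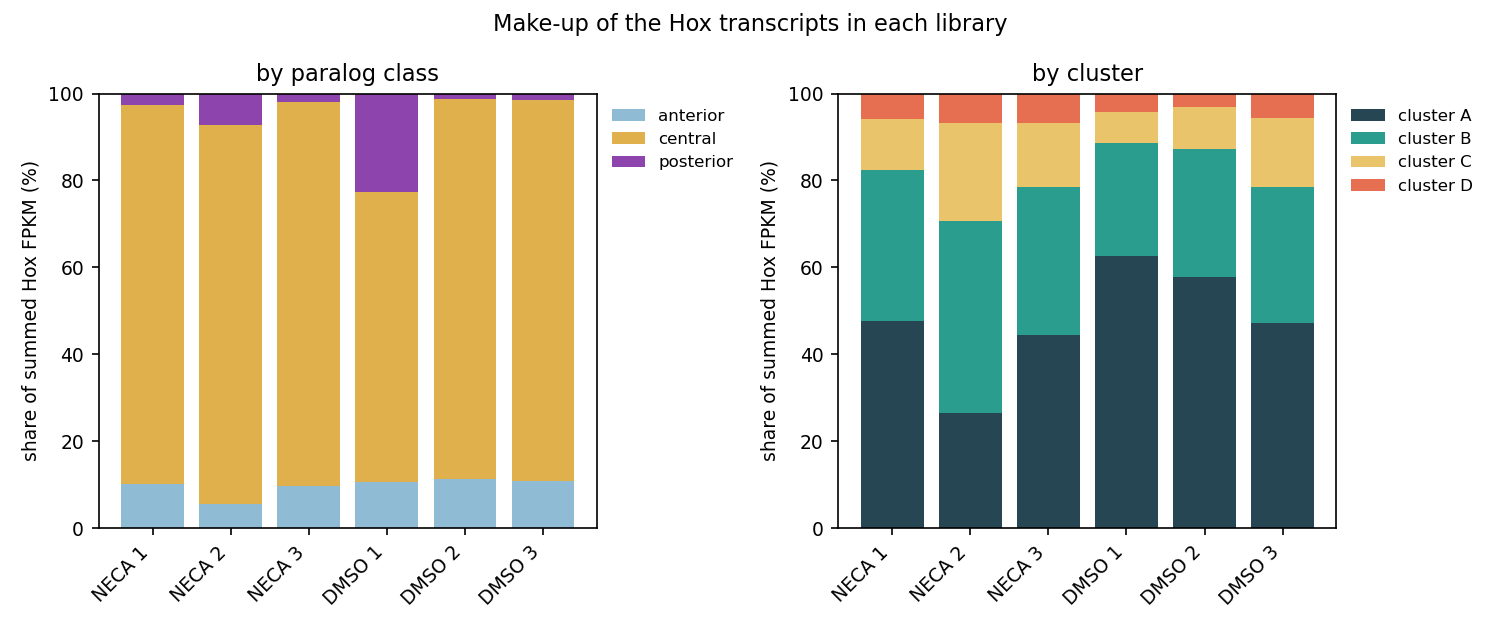
Share of the summed Hox FPKM in each library (%), split by paralog class on the left and by cluster on the right, with the NECA libraries left of the DMSO libraries. The posterior share is 22.6% in DMSO replicate 1 and 7.19% in NECA replicate 2, and the Hoxa share is 26.4% in NECA replicate 2 against 44.3% or more in the other libraries.

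NECA against DMSO was the comparison the study made. No Hox gene passed it. After the filter on low counts, 19 of the 39 members were tested (4 anterior, 13 central and 2 posterior), within a fit over 15847 genes. After Benjamini-Hochberg adjustment of edgeR's quasi-likelihood p over all genes, 0 of the 19 and 0 of the 15847 genes (0%) had an adjusted p under 0.05, and the smallest adjusted p of a Hox gene was 0.738. DESeq2 also called 0 of the 19, while it called 11 genes in all (0.0695%), and limma's voom test with quality weights called 0. At an unadjusted p under 0.05, edgeR had 1 Hox gene, Hoxa2, lower in NECA, and 868 genes in all (5.48%, made up of 2.45% higher and 3.03% lower in NECA), so the members' share of 5.26% was at the level of all genes. In other settings the share lay on either side of that of all genes. With no filter 9 of 30 Hox genes were under 0.05, against 5.83% of all genes. Among the 9 were Hoxa9, Hoxa10, Hoxa11, Hoxa13 and Hoxb13, which had most of their counts in DMSO replicate 1. Without DMSO replicate 3 it was 5 of 23 (21.7%), Hoxa9 and Hoxa10 among them, against 7.43% of all genes. With limma it was 0 of 19, against 9.45%, and with a replicate block 0 of 19, against 3.96%. Without DMSO replicate 2 it was 0 of 20, against 3.51%. Of the 19, 9 were higher and 10 lower in NECA, with a median log2 fold change of -0.14, beside 49% higher, 51% lower and a median of -0.01 over all genes tested. In bulk tissue, fewer cells of a type and less RNA per cell cannot be told apart.

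The members with the smallest unadjusted p were Hoxa2, Hoxa5, Hoxa3 and Hoxa4, and each had a lower mean in NECA. Hoxa2 had 4.07, 1.99 and 3.16 CPM in NECA and 4.69, 7.29 and 4.44 CPM in DMSO, a log2 fold change of -0.83 (SE 0.35, adjusted p = 0.738 with edgeR). The groups did not overlap, with NECA replicate 2 lowest and DMSO replicate 2 highest. Hoxa3, a gene of the pharyngeal arches, was at 5.88, 2.44 and 5.40 CPM in NECA and 7.03, 10.6 and 6.19 CPM in DMSO (-0.80, SE 0.38, adjusted p = 0.738 with edgeR), in the same order of libraries at both ends. Hoxa5 was at 18.7, 16.5 and 16.2 CPM in NECA and 20.1, 29.4 and 19.9 CPM in DMSO (-0.43, SE 0.20, adjusted p = 0.738 with edgeR). Its NECA libraries lay close together, and DMSO replicate 2 stood above the other DMSO libraries. Leaving out 1 library moved Hoxa5 to -0.22 (without DMSO replicate 2) and Hoxa3 to -0.49 (without NECA replicate 2). Hoxa4 had the largest size of these differences, -1.09 (SE 0.55, adjusted p = 0.738 with edgeR), at 8.72, 2.94 and 7.81 CPM in NECA and 10.1, 24.3 and 6.94 CPM in DMSO. The Hoxa4 groups overlapped, since DMSO replicate 3 lay below NECA replicates 1 and 3, and the fold change was -0.40 without DMSO replicate 2. All 5 tested Hoxa genes, the fifth being Hoxa7 at -0.25 (SE 0.40), had lower means in NECA. Without DMSO replicate 1 the Hoxa7 value was 0.003. Without both libraries numbered 2 Hoxa4 was at -0.044. Hoxa2, Hoxa3 and Hoxa5, or 15.8% of the 19, had NECA and DMSO libraries without overlap, against 13.7% of all genes tested (6.49% with NECA above and 7.16% with NECA below DMSO), so the count over both directions was close to that of all genes.

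Hoxb genes of groups 2 to 5 and Hoxc genes of groups 4 and 5 had log2 fold changes between -0.55 and 0.15. Hoxb4 was at 4.85, 4.19 and 3.79 CPM in NECA and 4.35, 7.16 and 5.19 CPM in DMSO (-0.38, SE 0.27). Hoxb2 was at 0.646, 1.30 and 1.21 CPM in NECA and 1.34, 2.21 and 1.13 CPM in DMSO (-0.55, SE 0.42), and Hoxb3 differed by 0.15 (SE 0.29). In Hoxb4 and Hoxb2 the groups overlapped and DMSO replicate 2 was highest, and without it they were at -0.16 and -0.22. Hoxb5 was at 10.0, 10.6 and 9.30 CPM in NECA and 9.49, 14.7 and 8.88 CPM in DMSO (-0.14, SE 0.24), and Hoxc4 at 4.85, 4.94 and 5.63 CPM in NECA and 4.35, 7.83 and 5.88 CPM in DMSO (-0.23, SE 0.27). Hoxc5 differed by -0.18 (SE 0.36). In Hoxb5 and Hoxc4 the 5 libraries other than DMSO replicate 2 lay between 8.88 and 10.6 CPM and between 4.35 and 5.88 CPM.

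Hoxb, Hoxc and Hoxd genes of groups 6 to 8 had higher means in NECA, and their highest values were in NECA replicate 2. Hoxb6 was at 5.88, 10.1 and 4.77 CPM in NECA and 4.46, 8.50 and 4.25 CPM in DMSO (log2 fold change 0.28, SE 0.39). Hoxb7 was at 4.65, 11.3 and 5.40 CPM in NECA and 2.57, 6.29 and 5.38 CPM in DMSO (0.59, SE 0.45), and Hoxb8, which acts in the spinal cord and in myeloid cells, at 4.27, 6.78 and 4.13 CPM in NECA and 1.62, 5.15 and 4.31 CPM in DMSO (0.46, SE 0.44). In these 3 neighbours NECA replicate 2 was highest, DMSO replicate 2 second, and the groups overlapped. Hoxc6 was at 2.71, 5.68 and 3.56 CPM in NECA and 1.28, 3.01 and 4.31 CPM in DMSO (0.48, SE 0.48). Hoxd8 was at 4.98, 8.32 and 6.54 CPM in NECA and 4.07, 4.48 and 5.63 CPM in DMSO (0.49, SE 0.27), with NECA replicate 1 below DMSO replicate 3. Hoxc8, a gene of the thoracic body wall and spinal cord, had the widest spread, at 1.29, 18.9 and 2.53 CPM in NECA and 0.279, 0.401 and 4.63 CPM in DMSO (2.11, SE 1.25, adjusted p = 0.738 with edgeR). Its groups overlapped, and the 5 libraries other than NECA replicate 2 did not exceed 4.63 CPM. Without NECA replicate 2 the fold changes were 0.12 for Hoxc8, -0.10 for Hoxb6, 0.09 for Hoxb7, 0.20 for Hoxb8, 0.14 for Hoxc6 and 0.29 for Hoxd8, and without DMSO replicate 3 that of Hoxc8 was 4.48 and that of Hoxc6 0.91. Without DMSO replicate 1 they were 0.11 for Hoxb6, 0.27 for Hoxb7, 0.087 for Hoxb8 and 0.11 for Hoxc6.

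**Figure D3:**
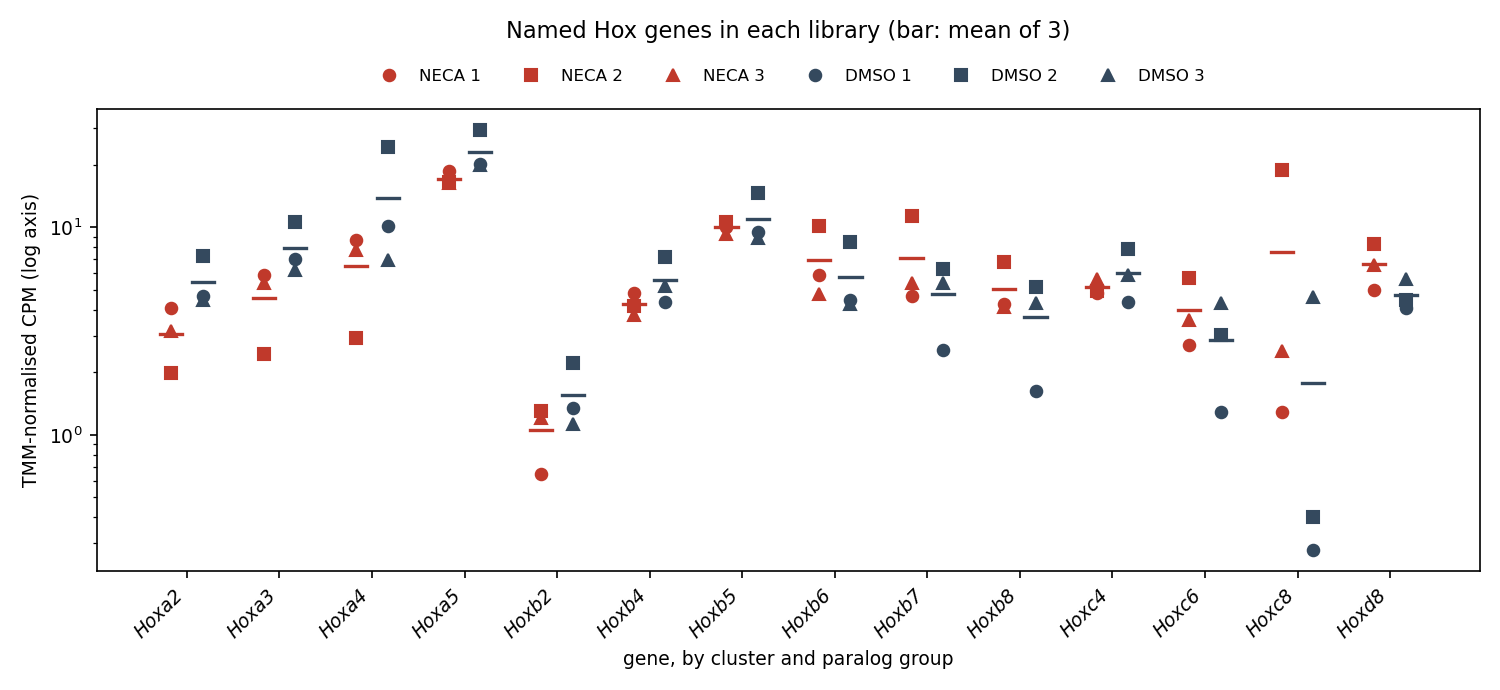
TMM-normalised CPM on a log axis for the 14 Hox genes described by name in the comparison, ordered by cluster and paralog group, with NECA left of DMSO, 1 symbol per replicate and a bar at the mean of 3 libraries. NECA lies wholly below DMSO in Hoxa2, Hoxa3 and Hoxa5, and Hoxc8 is spread from 0.279 to 18.9 CPM.

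Fold changes of the tested members ran with paralog number. Across the 19 genes, which share the same 6 libraries and are not independent replicates, Spearman's rho between paralog number and log2 fold change was 0.77. The fold changes ran from -1.09 in Hoxa4 to 2.11 in Hoxc8. Genes of groups 2 to 5 had negative fold changes except Hoxb3, and genes of groups 6 to 9 positive ones except Hoxa7. Over the same 19 genes, a set held fixed after the values were seen, rho stayed between 0.56 (without NECA replicate 2) and 0.88 (without DMSO replicate 1) when 1 library was left out, and it was 0.17 without both libraries numbered 2. With the position score as a covariate, described with the bowel markers, it was 0.26, with a stromal score, described with the cell markers, 0.027, and with limma 0.50. Leaving out 1 library also changed which members passed the filter. Over all members that passed, rho was 0.35 for 20 genes without NECA replicate 2, 0.34 for 23 genes without NECA replicate 1, 0.35 for 23 genes without DMSO replicate 3, 0.61 for 22 genes without NECA replicate 3, and 0.68 and 0.87 for 20 genes each without DMSO replicate 2 and without DMSO replicate 1. Hoxa9, which was high in DMSO replicate 1, entered the first 4 of these sets, and Hoxa10 entered both sets of 23 genes.

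**Figure D4:**
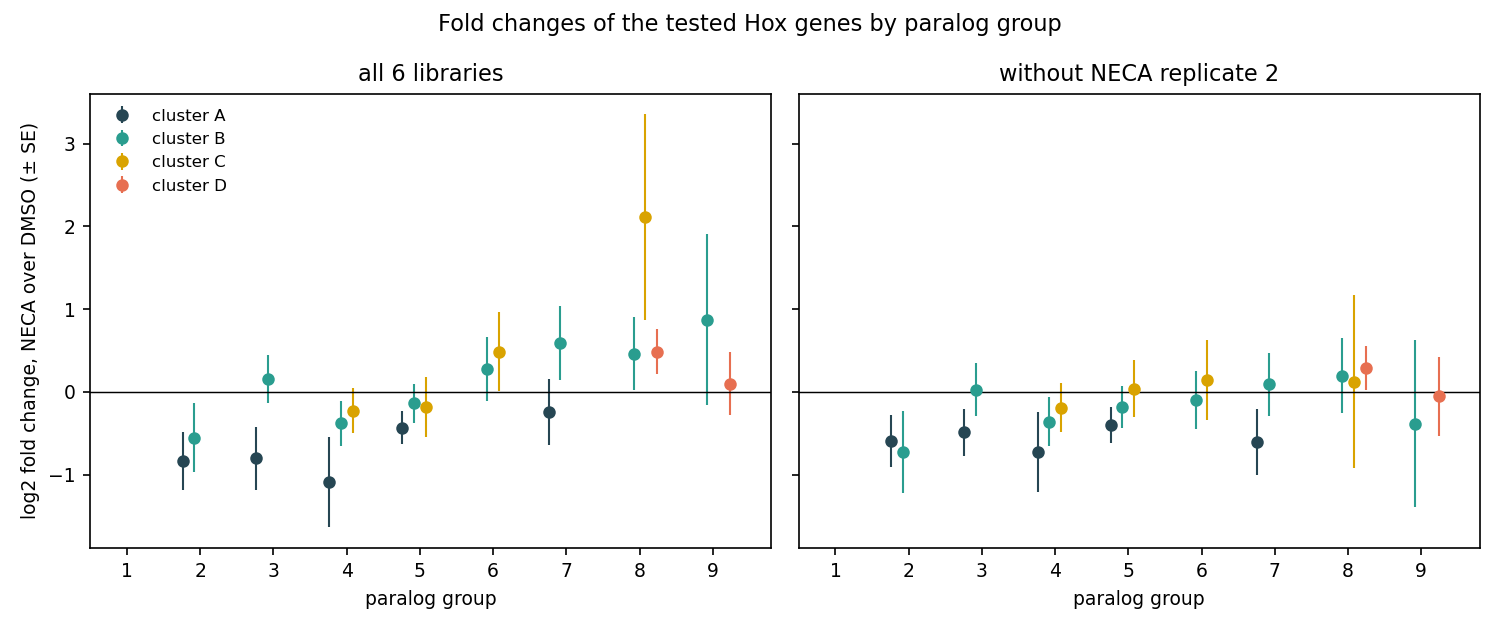
Log2 fold change, NECA over DMSO, with its standard error, of the 19 Hox genes tested with all libraries, against paralog group and coloured by cluster, with all 6 libraries on the left and without NECA replicate 2 on the right. On the left the values are negative in groups 2 to 5 except Hoxb3 and positive in groups 6 to 9 except Hoxa7, and on the right Hoxc8 is at 0.12 and Hoxb6 at -0.10.

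Ratios of 2 Hox genes, which do not depend on the library's scaling, differed between libraries within each group. The FPKM ratio of Hoxc8 to Hoxc4 was 0.242, 3.48 and 0.407 in the NECA libraries and 0.0581, 0.0465 and 0.714 in the DMSO libraries. The ratio of Hoxa7 to Hoxa4 was 0.115, 0.780 and 0.192 in NECA and 0.251, 0.0519 and 0.275 in DMSO, and that of Hoxb7 to Hoxb5 was 0.838, 1.91 and 1.05 in NECA and 0.488, 0.774 and 1.09 in DMSO. In these 3 ratios NECA replicate 2 had the highest value, and the other NECA libraries lay within the DMSO range. The ratio of Hoxb8 to Hoxb4 was 0.857, 1.58 and 1.06 in NECA and 0.362, 0.701 and 0.810 in DMSO. Each NECA library thus lay above the DMSO libraries, NECA replicate 1 by a small margin. The groups overlapped in all other ratios given here, and the share of gene pairs without overlap over all genes was not computed. Between clusters, the ratio of Hoxd8 to Hoxa4 was 0.331, 1.64 and 0.487 in NECA and 0.234, 0.107 and 0.471 in DMSO, with NECA replicates 2 and 3 above the DMSO range. For Hoxc6 to Hoxc5 it was 0.748, 2.81 and 1.10 in NECA and 0.447, 0.627 and 1.81 in DMSO, and for Hoxb9 to Hoxb8, where DMSO replicate 1 was highest, 0.357, 1.04 and 0.299 in NECA and 2.79, 0.0665 and 0.104 in DMSO. The FPKM-weighted mean paralog number over groups 1 to 8 was 5.08, 5.96 and 5.22 in NECA and 4.78, 4.78 and 5.2 in DMSO. Over all 13 groups it was 5.19, 6.17 and 5.30 in NECA and 6.06, 4.84 and 5.26 in DMSO, which places DMSO replicate 1 near NECA replicate 2 through its posterior genes.

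Genes that mark bowel position without being Hox genes had an order over the libraries like that of Hoxc8. Other Hox genes, among them Hoxa7, Hoxb6, Hoxb7 and Hoxb8, were ordered otherwise. Hoxa7 was highest in DMSO replicate 1, at 4.58 CPM, ahead of NECA replicate 2, at 4.14 CPM. DMSO replicate 1 also had the largest posterior share of the Hox FPKM, 22.6%, while the score below, which holds no colon genes, placed it among the proximal libraries. A position score, the mean log2 CPM of 10 proximal genes minus that of 8 ileal genes, was 3.84, -3.94 and 0.979 in NECA and 5.24, 5.49 and 1.53 in DMSO, where a higher value is more proximal. From proximal to distal by this score the libraries ran DMSO replicate 2, DMSO replicate 1, NECA replicate 1, DMSO replicate 3, NECA replicate 3 and NECA replicate 2, and by Hoxc8 from low to high they ran DMSO replicate 1, DMSO replicate 2, NECA replicate 1, NECA replicate 3, DMSO replicate 3 and NECA replicate 2. In Hoxb6, Hoxb7 and Hoxb8, DMSO replicate 2, the most proximal by the score, was second highest, at 8.50, 6.29 and 5.15 CPM. Fabp6, the ileal bile acid binding protein, had 0, 38381 and 2605 counts in NECA and 1, 3 and 2159 in DMSO, and Pdx1, a duodenal transcription factor, 29, 4 and 11 counts in NECA and 282, 163 and 37 in DMSO. In both genes NECA replicate 2 was at the ileal end. All 10 proximal genes had lower and all 8 ileal genes higher means in NECA. With edgeR 0 of either passed the adjusted threshold, and 2 of each had an unadjusted p under 0.05, against 5.48% of all genes. The groups did not overlap in 3 proximal genes (30%) and 0 ileal genes, against 13.7% of all genes. DESeq2 called 2 of the proximal genes, against 0.0695% of all genes. They were Ada (log2 fold change -1.67 with edgeR, DESeq2 adjusted p = 0.00214) and Pdx1 (DESeq2 adjusted p = 0.0131), both without overlap. With the score as a covariate the fold changes were -0.44 for Hoxc8, -0.15 for Hoxc6 and -0.068 for Hoxb7. In that fit 0 of the 19 members had an unadjusted p under 0.05 with edgeR, against 2.64% of all genes tested. The part of bowel position in the differences between NECA and DMSO cannot be told apart from the treatment with these libraries, since the labels do not give the segment.

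**Figure D5:**
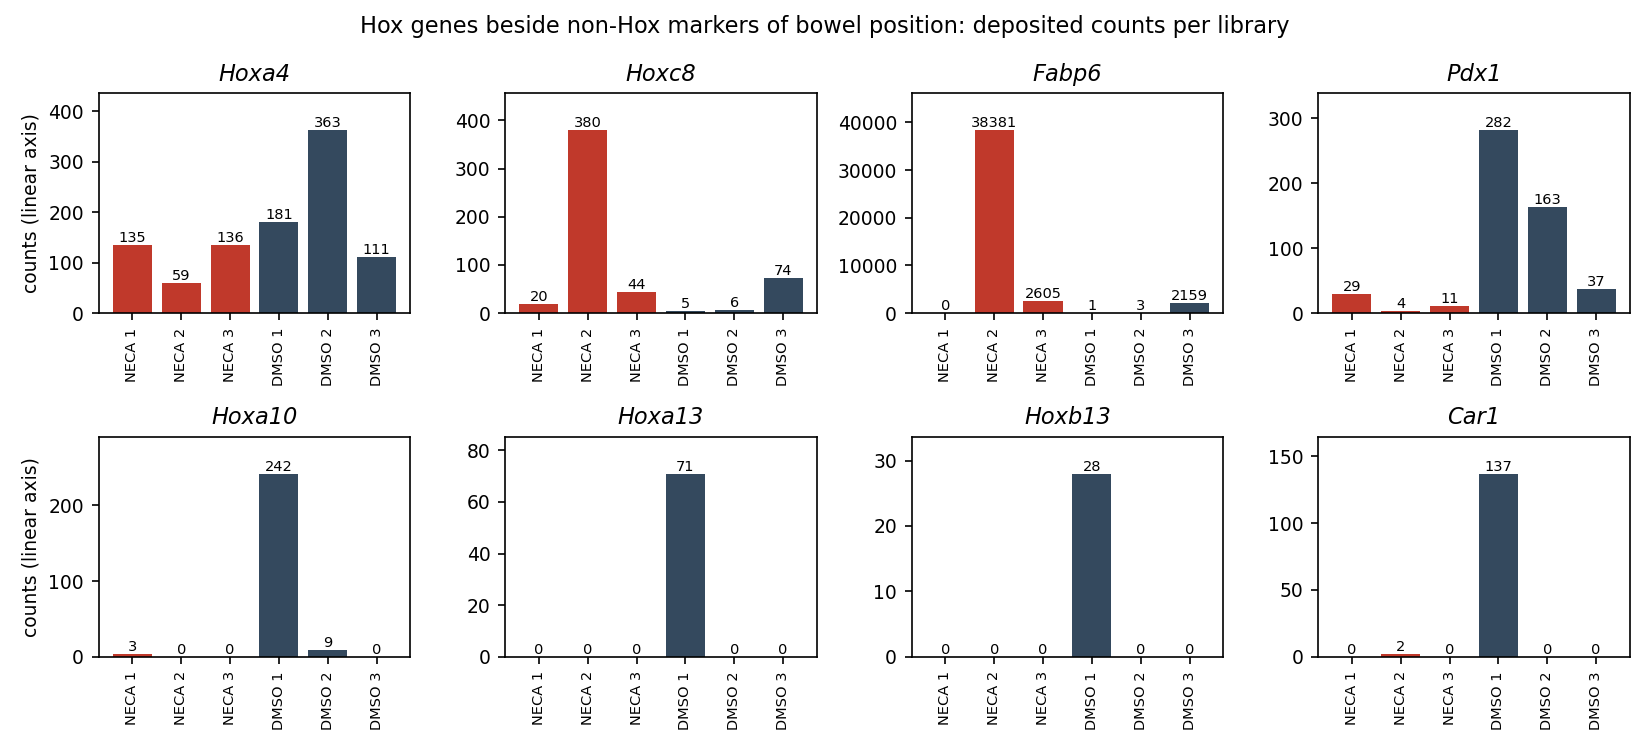
Deposited counts per library on linear axes, NECA left of DMSO, for the Hox genes Hoxa4, Hoxc8, Hoxa10, Hoxa13 and Hoxb13 beside the ileal gene Fabp6, the duodenal gene Pdx1 and the colonic gene Car1. Hoxc8 and Fabp6 are highest in NECA replicate 2, with 380 and 38381 counts, and Hoxa10, Hoxa13, Hoxb13 and Car1 are highest in DMSO replicate 1, with 242, 71, 28 and 137.

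Hoxa9, Hoxa10, Hoxa11, Hoxa13 and Hoxb13 had most of their counts in DMSO replicate 1. Hoxa10, a gene of the hindgut and uterus, had 3, 0 and 0 counts in NECA and 242, 9 and 0 in DMSO, and its 242 counts are 13.5 CPM of the unscaled total (95% exact binomial interval 11.9 to 15.3). Hoxa9 had 0, 4 and 2 counts in NECA and 128, 18 and 2 in DMSO. Hoxa11 had 0 counts in each NECA library and 55, 0 and 0 in DMSO, Hoxa13, which patterns the hindgut and genital tubercle, 0 in NECA and 71, 0 and 0 in DMSO, and Hoxb13, of the same paralog group, 0 in NECA and 28, 0 and 0 in DMSO. In FPKM, Hoxa10 at 4.09, Hoxa13 at 1.59, Hoxa11 at 1.33 and Hoxa9 at 1.27 in DMSO replicate 1 stood beside central genes such as Hoxa7 (1.58) and Hoxc4 (1.68) in that library. None of these 5 genes passed the filter on low counts, and with no filter no Hox gene had an adjusted p under 0.53 with edgeR. Hoxa9 passed the filter when a NECA library or DMSO replicate 3 was left out, with log2 fold changes of -5.40 to -4.10. Hoxa10 passed it without NECA replicate 1, where the remaining NECA libraries had 0 counts, and without DMSO replicate 3, at -6.77 (SE 1.56, unadjusted p = 0.00368, adjusted p = 0.640 with edgeR). In each of these fits 0 Hox genes were called. Hoxa9 and Hoxa10 entered them only through their counts in DMSO replicates 1 and 2. The negative direction of their fold changes was thus set by how they entered, and their p is no support for a difference. Against a floor of 3 counts over the NECA group, the summed DMSO counts were at least 24.7-fold higher for Hoxa13, 19.1-fold for Hoxa11 and 9.73-fold for Hoxb13, and each of these sums is the count of 1 library. Without DMSO replicate 1 the counts left in DMSO are 0 for these 3 genes.

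Transcripts around the posterior end of Hoxa were found in the same library. Evx1, a homeobox gene that lies beyond Hoxa13, had 18 counts in DMSO replicate 1 and 0 in the other libraries. Hottip, a long non-coding RNA at that end, had 7 there and 0 elsewhere. Hoxa11os, which lies antisense over 35.0% of the exon bases of Hoxa11, had 45 there and 0 elsewhere, and the reads of this pair cannot be told apart. Evx2, the matching gene beyond Hoxd13, was at 0 in all 6, like Hoxd10 to Hoxd13. Markers of colon moved with these genes in part. Car1, a colonic carbonic anhydrase, had 0, 2 and 0 counts in NECA and 137, 0 and 0 in DMSO, and Scnn1b, a subunit of the epithelial sodium channel, 0, 4 and 1 in NECA and 11, 0 and 0 in DMSO. The summed level of all 8 colon markers was 111, 69 and 108 CPM in NECA and 364, 331 and 136 CPM in DMSO, of which Aqp8, a water channel, made up 235 CPM in DMSO replicate 1 and 237 CPM in DMSO replicate 2. DMSO replicate 2 was thus also high in the sum, with no count of Car1. None of the 8 was at 0 in every library. Atp12a, a colonic proton pump, had 0, 2 and 2 counts in NECA and 168, 2 and 1 in DMSO, and Best2, of colonic goblet cells, 0, 1 and 0 in NECA and 57, 0 and 0 in DMSO; both were named after their values were seen. Of 7 pancreas markers Ins2 had 0, 2 and 4 counts in NECA and 65, 1 and 0 in DMSO, and Ptf1a was at 0. Ctrb1, a digestive protease precursor and the 1 pancreas marker that was tested, had 1142, 7 and 1289 counts in NECA and 626, 299 and 923 in DMSO, so that DMSO replicate 1 was not the high library for this gene. Cel had 0, 0 and 2 counts in NECA and 6, 1 and 1 in DMSO, and Cela2a 0 in NECA and 6, 0 and 0 in DMSO. Pnlip had 1 count, in DMSO replicate 1, and Cpa1 0, 0 and 2 in NECA and 1, 0 and 0 in DMSO. The part of these tissues in the posterior Hox counts of DMSO replicate 1 was not tested.

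In NECA replicate 2 the posterior genes with counts were Hoxa9, Hoxb9, Hoxc9 and Hoxd9, of which Hoxa9 had 4. Hoxb9 was at 1.49, 6.88 and 1.21 CPM in NECA and 4.41, 0.335 and 0.438 CPM in DMSO, a log2 fold change of 0.87 (SE 1.03) that was 3.01 (SE 0.95, unadjusted p = 0.0168, adjusted p = 0.897 with edgeR) without DMSO replicate 1 and -0.39 without NECA replicate 2. Its 2 highest libraries were the ones with the larger posterior share, 1 in each group. Hoxc9 had 0, 35 and 1 counts in NECA and 1, 0 and 4 in DMSO, and so did not share the counts of DMSO replicate 1. Hoxd9 was at 1.10, 1.15 and 0.632 CPM in NECA and 1.06, 0.803 and 0.813 CPM in DMSO (0.10, SE 0.38). Hoxb9, Hoxc9 and Hoxd9 thus had different patterns over the libraries, as did Hoxa9.

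Among the partners of Hox proteins, all 9 genes of the PBX, MEIS and PKNOX families were tested, with 2 higher and 7 lower in NECA, a median log2 fold change of -0.30 and 0 past the adjusted threshold of edgeR. Pbx3 differed by -0.51 (SE 0.18, unadjusted p = 0.0227), without overlap of the groups, and Meis2 by -0.48 (SE 0.26). Of 13 upstream regulators 10 were tested, 5 in each direction, with a median of -0.03 and 0 called. Cdx1 was at 3079, 7236 and 3866 counts in NECA and 3228, 2067 and 2962 in DMSO (0.63, SE 0.26, unadjusted p = 0.0412), with groups that did not overlap after scaling, while Cdx2 differed by 0.25 (SE 0.21) and Cdx4 was at 0. Cyp26b1, which degrades retinoic acid, differed by 0.58 (SE 0.35). Of the 18 Polycomb, trithorax and insulator genes that keep Hox clusters silent or open, all were tested, 9 in each direction, with 0 called and a median of -0.02. Of 13 genes that flank the clusters 12 were found and 8 tested, with 3 higher, 5 lower, 0 called and a median of -0.05. Of 17 non-coding genes of the clusters 16 were found and 5 tested, 1 higher and 4 lower in NECA, with 0 called and a median of -0.73. Hoxaas3, antisense to parts of Hoxa3 and Hoxa7, showed 24, 15 and 30 counts in NECA and 58, 72 and 41 in DMSO (-1.40, SE 0.41, unadjusted p = 0.0101, adjusted p = 0.738 with edgeR), and Hoxaas2 25, 28 and 40 in NECA and 38, 77 and 36 in DMSO (-0.84, SE 0.43).

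Markers of the cells that express Hox genes differed between libraries as well. The summed level of 9 smooth muscle markers was 2787, 2636 and 2870 CPM in NECA and 3136, 5969 and 2382 CPM in DMSO, and that of 10 enteric neuron and glia markers 239, 195 and 207 CPM in NECA and 205, 311 and 188 CPM in DMSO. DMSO replicate 2 was highest in both, and it was also the highest library for 9 of the 19 tested Hox genes, while NECA replicate 2 was the highest for another 9. Over all genes tested these libraries were highest for 26.5% and 30.1%. Fibroblast markers, 12 genes, summed to 3634, 4506 and 4034 CPM in NECA and 4837, 3553 and 4731 CPM in DMSO, and mesothelial markers, 5 genes, to 88.4, 74.6 and 99.1 CPM in NECA and 78.2, 240 and 56.8 CPM in DMSO. Lower in NECA were all 9 smooth muscle, all 5 mesothelial, 8 of 10 neuron and glia and 8 of 12 fibroblast markers. The median log2 fold changes of these lists were -0.50, -0.49, -0.36 and -0.14. All 9 epithelial markers were higher in NECA, with a median of 0.30. In each of these lists 0 genes were called. A stromal score was the mean log2 CPM of smooth muscle and fibroblast markers minus that of epithelial markers. It was -2.80, -3.28 and -2.66 in NECA and -2.38, -2.03 and -2.81 in DMSO. With it as a covariate 0 of the 19 members had an unadjusted p under 0.05 with edgeR, against 1.41% of all genes tested. Hoxa4 was then at 0.18 and the Hox median at -0.05. The part of tissue make-up in the differences cannot be told apart from the treatment with these libraries. All 7 immune markers had lower means in NECA, with 0 called. Of these, 4 had an unadjusted p under 0.05 with edgeR, against 5.48% of all genes, and 3 had no overlap (42.9%, against 13.7%). Ptprc differed by -0.81 (SE 0.18, unadjusted p = 0.00235 with edgeR), Cd52 by -0.76 (SE 0.24) and Cd79a by -3.03 (SE 1.10). Summed levels were 557, 188 and 506 CPM in NECA and 487, 477 and 542 CPM in DMSO. Csf1r, which differed by -0.11, made up 455, 110 and 374 CPM of this in NECA and 292, 338 and 382 CPM in DMSO. The summed Hox level was 94.8, 128 and 92.1 CPM in NECA and 123, 148 and 99.2 CPM in DMSO.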

How the data were processed

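RNA of 6 libraries was analysed. Per the labels' protocols, cDNA was made with SMARTer chemistry and amplified before fragmentation, and read from both ends. For each gene the authors deposited an unnormalized count in whole numbers and an FPKM, scaled by gene length and library. Per the submitters' processing notes, HISAT, StringTie and edgeR and the builds mm10 and GRCm38 were used. Tool versions, strand and multi-mapping rules were not given in the sources used here. From the counts, filterByExpr (minimum count 10, minimum total 15) kept 15847 genes. These were scaled by TMM and tested by edgeR 4.0.16 (glmQLFit, glmQLFTest) in R 4.3.3, without covariates, with Benjamini-Hochberg adjustment and a threshold of 0.05. The SE is the fold change over the root of F. The deposited FPKM served for levels between genes and was not tested. Alternatives were DESeq2 1.42.0, limma 3.58.1 (voom with quality weights), DESeq2 size factors, no filter or 1 CPM in 3 libraries, a replicate block, each library left out, and covariates for bowel position and stroma. The scripts were tested on simulated data. The members, lists, named genes and tests were chosen with earlier results of these data known. Values in each library are given for the 12 members with the highest mean FPKM, the 10 tested with the smallest p, and those without overlap at 1 CPM or more. Of the other lists, up to 3 members with the smallest p and markers needed for a check were named. Coordinates are from GENCODE M21 on GRCm38, which holds 38 of the 39 identifiers. Upstream windows are from RefSeq on GRCm38.p6.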

Additional observations from a re-analysis of the deposited data

How the results depend on the processing

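No setting called a Hox gene, among the 19 to 30 tested, and the 14 Hox genes described in detail stayed on the same side of the adjusted threshold in every setting run. Over all genes, edgeR called 2 without the filter and DESeq2 called 11, against 0 in the other settings run. The median of the tested Hox genes ran from -0.24 without DMSO replicate 3 to 0.08 without DMSO replicate 2 over the fits that leave out 1 library, and from -0.24 without the filter to -0.01 with limma over the rest. Among the 14, these fold changes took the opposite sign, and the cause was not tested. With the stromal score they were Hoxa4 at 0.18, Hoxb5 at 0.11, Hoxc6 at -0.049 and Hoxc8 at -0.39. With the position score they were Hoxb7 at -0.068, Hoxc6 at -0.15 and Hoxc8 at -0.44. Without both libraries numbered 2 they were Hoxb5 at 0.075, Hoxc4 at 0.039 and Hoxc8 at -0.33, and with limma Hoxc4 at 0.048. Leaving out 1 library at a time gave -0.27 to 0.12 for Hoxb5 and -0.42 to 0.0078 for Hoxc4, both positive without DMSO replicate 2, and -0.099 (without NECA replicate 2) to 0.67 for Hoxb6. Of the other 5 tested members, Hoxb9 took the opposite sign with the stromal score (-0.92), the position score (-0.31), limma (-0.086), without NECA replicate 2 (-0.39) and without both libraries numbered 2 (-0.86). In these 5 settings Hoxc5 was at 0.49, 0.30, 0.19, 0.039 and 0.38, and it was at 0.16 without DMSO replicate 2. Hoxd9 was at -0.12, -0.24, -0.052 and -0.13 with the stromal score, limma and without NECA replicate 2 or both libraries numbered 2, and without DMSO replicate 1 Hoxb3 was at -0.016 and Hoxa7 at 0.0028. The labels do not say whether the replicate numbers pair the libraries. Deviations from the group means correlated at 0.00845, -0.183 and -0.0136 for numbers 1, 2 and 3, which with 3 libraries in each group cannot decide it. With the replicate block 0 Hox genes and 0 genes in all were called, and the Hox median was -0.11. Scaling by DESeq2 size factors moved the median of all genes by 0.0092 on the log2 scale. With CPM per kb of exon in place of FPKM, Hoxa5 held 21.7% of the Hox total, as before. Depth limits what can be said of Hoxb1, Hoxd4 and the 9 genes at 0, since a count of 0 allows a level of up to 3 counts.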
